A study of Mus musculus with 16 samples.

Results

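Bcat1 and 9 further genes of branched-chain amino acid breakdown were followed in the livers of 16 mice, with 1 Agilent whole mouse genome array per mouse. The genes were taken by name, with every probe whose RefSeq accession belonged to Bcat1, Bcat2, Bckdha, Bckdhb, Dbt, Bckdk, Ppm1k, Ivd, Mccc1 or Mccc2. These were 19 of the 41174 probes and 10 of the 19096 named genes on the array. A probe entered the test where, in 1 group or more, the scanner software called it well above background on each of the 4 arrays. This left 18 of the 19 probes among 24454 tested, and 13304 genes were tested in all. The set was selected on the Bcat1 signal, known beforehand to be lower after phenobarbital on these arrays, and then filled with its pathway. The Bcat1 values are therefore a description and carry no test. Its tested probe passed the filter only through the WT DEN group.

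All mice were male, and all had received N-diethylnitrosamine (DEN), a carcinogen that damages DNA in hepatocytes, as 1 injection of 90 mg/kg at 5 weeks of age. Wild type (WT) mice were C57BL/6J, and KO mice carried a null allele of Gadd45b, a stress-inducible adaptor of kinase signalling, in every cell. The WT DEN + PB and KO DEN + PB groups drank phenobarbital (PB), a barbiturate that activates the liver receptor CAR and promotes liver tumours in mice, at 0.5 g/l from 7 weeks of age. The WT DEN and KO DEN groups drank plain water, and tissue outside tumours was taken from all 4 groups at 57 weeks. Each group had 4 mice. By its stock name the KO line has a mixed strain origin, so an effect of the null allele and an effect of strain background cannot be told apart. No group without DEN was among the samples, and the study's purpose was to compare the response to PB with and without Gadd45b.

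Leucine, isoleucine and valine are the branched-chain amino acids (BCAA). Their first step is the transfer of the amino group to 2-oxoglutarate by the cytosolic aminotransferase Bcat1 or the mitochondrial aminotransferase Bcat2, and this activity is low in adult liver. The liver instead is rich in the next enzyme, the mitochondrial branched-chain ketoacid dehydrogenase, built from Bckdha, Bckdhb and Dbt, switched off by the kinase Bckdk and on by the phosphatase Ppm1k. After it the leucine arm runs through Ivd and the biotin-dependent carboxylase of Mccc1 and Mccc2.

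The promoters of the genes on which the results turn are shown as the 250 bases before a transcription start, from RefSeq on GRCm38.p6, with matches to any of 3 motifs in capitals. The motifs, searched on both strands, were the E-box CACGTG, the nuclear receptor half-site AGGTCA and the amino acid response element TGATGNAA. The array itself was designed on mm9, and none of its coordinates were used. Bcat1 has 2 listed starts on the minus strand, with windows at chr6:145048813-145049062 (start A) and chr6:145076158-145076407 (start B). The windows of Ppm1k (chr6:57535488-57535737, minus strand) and Ivd (chr2:118861744-118861993, plus strand) are given beside them, and these genes had called probes. Bcat2 also had a called probe, and its windows, which are not shown, held none of the 3 motifs.
Bcat1 start A: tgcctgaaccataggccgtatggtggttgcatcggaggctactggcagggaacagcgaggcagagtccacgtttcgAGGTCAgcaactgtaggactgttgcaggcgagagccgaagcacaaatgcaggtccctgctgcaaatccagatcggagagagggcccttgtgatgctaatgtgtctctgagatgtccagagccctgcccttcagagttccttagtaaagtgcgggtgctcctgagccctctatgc
Bcat1 start B: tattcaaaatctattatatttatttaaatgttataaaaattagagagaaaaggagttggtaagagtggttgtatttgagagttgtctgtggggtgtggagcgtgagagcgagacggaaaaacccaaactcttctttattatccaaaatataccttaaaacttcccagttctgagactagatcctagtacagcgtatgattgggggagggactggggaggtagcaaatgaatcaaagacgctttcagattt
Ppm1k: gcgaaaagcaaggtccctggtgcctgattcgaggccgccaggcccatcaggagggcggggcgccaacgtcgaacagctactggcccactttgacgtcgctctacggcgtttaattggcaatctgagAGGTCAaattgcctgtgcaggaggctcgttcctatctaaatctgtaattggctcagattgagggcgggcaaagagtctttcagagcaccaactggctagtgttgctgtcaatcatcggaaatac
Ivd: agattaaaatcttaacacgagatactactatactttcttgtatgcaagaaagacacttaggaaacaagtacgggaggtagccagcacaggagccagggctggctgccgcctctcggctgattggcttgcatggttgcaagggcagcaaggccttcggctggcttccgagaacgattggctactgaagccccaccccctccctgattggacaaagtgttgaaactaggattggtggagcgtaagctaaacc
The AGGTCA letters lay 174 bases before start A of Bcat1 and 124 bases before the start of Ppm1k, and neither start B of Bcat1 nor Ivd held any of the 3 motifs. Promoters were listed for 9 of the 10 genes (12 windows, Dbt not among them). AGGTCA was in 3 of the 12 windows and in 14.02% of 32851 mouse promoters, CACGTG in 1 of the 12 (Mccc2) and 6.02%, and TGATGNAA in 0 of the 12 and 3.45%. These are letter matches and not sites of binding.

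Levels are on a log2 scale on which 0 is the 75th percentile of the processed signals of that array, and levels of different probes are not compared. On the 16 arrays 58.3% to 67.7% of spots were well above background and no spot was saturated. Arrays of the same group correlated at 0.974 to 0.992 over the tested probes and arrays of different groups at 0.952 to 0.989. The Gadd45b probe was well above background on all 8 WT arrays and on no KO array. Set on the KO arrays to the dimmest signal that counted as well above background, it was 23.6-fold lower under DEN. Under DEN + PB it was 44.8-fold lower in the same way. Cyp2b10, the classical target of CAR, was higher after PB by 6.69 ± 0.62 (log2, SE) in WT and 6.80 ± 0.62 in KO. Of 12 hepatocyte markers, 10 had probes and all 10 were tested. Of 12 pancreatic acinar markers, 6 were tested, and the summed signal of the list ran from 4.46 to 11.8 (units of the 75th percentile). Cpa1, Cpb1, Pnlip, Prss2 and Clps of this list were not well above background on any array. The arrays lay on 4 slides, of which 1 held no KO DEN array and 1 no WT DEN array. In bulk liver, fewer cells of a type and less RNA per cell cannot be told apart.

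By its tested probe, A_52_P507537, Bcat1 was well above background on 7 of 8 arrays of mice given DEN alone and on 0 of 8 arrays of mice given PB. In WT DEN the probe stood at -3.70, -4.63, -3.57 and -2.70, well above background on all 4 arrays. In WT DEN + PB it stood at -7.93, -7.29, -7.54 and -7.22, and on none of these arrays was it well above background. The groups did not overlap. The difference was 3.68-fold when the WT DEN + PB arrays were set to the lowest signal at which a probe counted as well above background. Measured as it stood, the difference was -3.85 ± 0.32 (log2, SE).

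In KO DEN the same probe stood at -5.08, -4.19, -5.04 and -4.61, well above background on 3 of 4 arrays. In KO DEN + PB it stood at -7.10, -7.05, -6.45 and -7.00, again on none of the arrays well above background. These groups did not overlap either, and the difference was -2.17 ± 0.32 (log2, SE) as measured. With the KO DEN + PB arrays set to the lowest signal that counted as well above background, it was 1.16-fold. This is no firm bound, because KO DEN replicate 3, itself not well above background, entered at its measured -5.04. The value is small because KO DEN itself was close to background. The KO DEN mean was 1.08 ± 0.32 (log2, SE) below the WT DEN mean, with overlapping arrays, and under DEN + PB this probe was below background in both genotypes, so no fold is given there. Within a slide the PB difference ran from -4.36 to -3.56 in WT and from -2.80 to -1.62 in KO.

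The signals behind these values were dim. Before scaling, the processed signal of this probe was 11.13 to 36.94 in WT DEN, 7.19 to 9.74 in KO DEN, and 1.18 to 1.63 on all 8 PB arrays. With normexp, another background correction, the PB difference was -0.43 in WT and turned to 0.06 in KO. The other Bcat1 probe, A_51_P376227, did not show the same pattern. It stood at -7.07, -6.52, -3.68 and -5.00 in WT DEN, at -6.01, -4.73, -6.44 and -4.42 in WT DEN + PB, between -7.69 and -6.09 in KO DEN, and between -7.05 and -4.74 in KO DEN + PB. It was well above background on 2 arrays of each WT group and on no KO array, and its groups overlapped, so it passed no filter and was not tested. Both probes carry 1 and the same accession, and which transcript part each reads was not given in the sources used here.

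**Figure D1:**
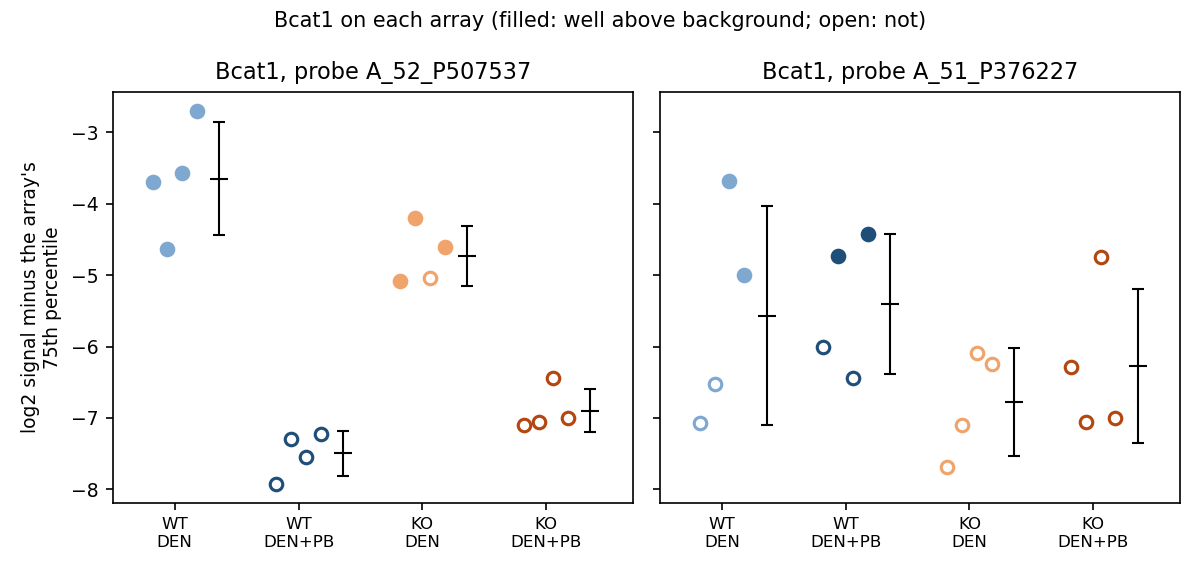
Each point is 1 array (y axis, log2 signal with the array's 75th percentile at 0; x axis, the 4 groups), filled where the probe was well above background, with the group mean and SD (n = 4) beside it. Probe A_52_P507537 lay between -7.93 and -6.45 on the 8 PB arrays and between -5.08 and -2.70 on the 8 DEN arrays, while the groups of probe A_51_P376227 overlapped.

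Cell type markers were compared over the same arrays as the lower Bcat1 signal after PB. After PB in WT, 0 of 10 Kupffer cell and macrophage markers, 0 of 10 stellate cell and fibroblast, 0 of 10 endothelial, 0 of 9 lymphocyte and 0 of 10 hepatocyte markers were called. Of 7 cholangiocyte markers 2 were called higher, where 0.737% of all genes were called. A call here and below is a limma adjusted p under 0.05 and a change of at least 1.5-fold. One WT DEN array stood out with a summed Kupffer cell and macrophage signal of 232, where the 4 WT DEN arrays had a median of 84.9 (units of the 75th percentile). The part of this array in the Bcat1 difference was not tested. With 1 array left out at a time, the PB difference of Bcat1 in WT ran from -4.17 to -3.53, and the set was picked on this difference. After PB in KO, 1 of 9 lymphocyte markers was called lower, where 2.13% of all genes were called. No marker of the other lists named here was called. Whole lists nevertheless lay to one side of 0 without calls. In KO, 0 of 10 Kupffer cell and macrophage markers (median -0.406), 0 of 10 stellate cell and fibroblast (-0.146), 0 of 7 cholangiocyte (-0.216) and 1 of 10 endothelial markers (-0.400) were above 0 after PB, and in WT 0 of 10 hepatocyte markers were (-0.295).

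No other gene of the set was called after PB in either genotype. In WT, 0 of 9 were called where 98 of 13304 genes (0.737%) were, with 1 at an unadjusted limma p under 0.05 (Dbt). In KO, 0 of 9 were called where 283 genes (2.13%) were, with 1 at an unadjusted limma p under 0.05 (Ivd). A linear model without moderation called 0 in both. The share of all genes at that unadjusted level was not counted. The unadjusted limma p of 0.0461 for Dbt in WT went with an adjusted p of 0.668. That of 0.0242 for Ivd in KO went with 0.295. The median log2 change of the 9 genes was -0.095 in WT and 0.129 in KO, and that of all genes tested was -0.022 and 0.011. Higher after PB were 3 of the 9 genes in WT (45.9% of all genes) and 7 in KO (51.9%). Without scaling between arrays these counts became 5 and 1, as the median of all genes moved to 0.080 and -0.285, and 3 and 7 of the 9 still stood above that median.

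Bcat2, the mitochondrial counterpart of Bcat1, stayed measurable on all 16 arrays. Its brightest probe, A_51_P181448, stood at -1.10, -1.67, -1.77 and -1.25 in WT DEN and at -1.16, -1.34, -1.11 and -2.00 in WT DEN + PB. In KO DEN it stood at -1.21, -1.04, -1.09 and -1.05, and in KO DEN + PB at -1.04, -0.88, -0.82 and -1.05. The PB groups overlapped within each genotype, with changes of 0.04 ± 0.19 (log2, SE) in WT and 0.15 ± 0.19 in KO, whereas every KO DEN + PB array lay above every WT DEN + PB array. That last difference was 0.46 ± 0.19 (log2, SE; limma adjusted p = 0.172, exact permutation p = 0.0286, the smallest that 4 against 4 arrays can give).

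A second Bcat2 probe, A_52_P448266, separated the genotypes under both treatments. It stood at -1.49, -2.05, -2.10 and -1.79 in WT DEN against -1.04, -1.36, -0.96 and -0.92 in KO DEN, a difference of 0.79 ± 0.20 (log2, SE; limma adjusted p = 0.0473). Under DEN + PB it stood at -1.70, -2.11, -1.66 and -2.50 in WT against -0.84, -1.41, -1.30 and -1.15 in KO, a difference of 0.82 ± 0.20 (limma adjusted p = 0.0227). Both passed the threshold and neither pair of groups overlapped. Within a slide the difference under DEN was 0.13 and 1.05 on the 2 slides that held both groups, and the call was lost with slide as a block (0.66, limma adjusted p = 0.208). With normexp the differences were 0.19 under DEN (limma adjusted p = 0.723) and 0.21 under DEN + PB (limma adjusted p = 0.961). The call under DEN held under 2 of 10 other settings and that under DEN + PB under 5 of 10, and leaving out 1 array at a time kept 4 and 12 of 16, the latter lost without WT DEN + PB replicate 2 or 4 or KO DEN + PB replicate 1 or 4. The third probe, A_52_P393781, differed by 0.05 ± 0.20 under DEN and 0.24 ± 0.20 under DEN + PB, with overlapping groups, so the 3 probes of Bcat2 disagree in size.

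Among the subunits of the dehydrogenase complex, Bckdha, the catalytic alpha subunit, stood at 5.53, 5.49, 5.21 and 5.37 in WT DEN + PB and at 5.74, 5.92, 5.97 and 5.68 in KO DEN + PB (probe A_51_P466148). All 4 KO arrays were above all 4 WT arrays, by 0.43 ± 0.17 (log2, SE; limma adjusted p = 0.133). Under DEN the arrays ran from 5.13 to 5.94 in WT and from 5.57 to 5.77 in KO and overlapped. Its dimmer probe, A_52_P421133, differed by 0.28 ± 0.39 under DEN + PB.

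Dbt, the core subunit that carries the acyl group, was measured by 1 probe. It stood at 1.82, 2.24, 2.27 and 1.40 in WT DEN and at 1.16, 1.22, 2.07 and 1.17 in WT DEN + PB, so that 3 of 4 PB arrays lay below every DEN array and the fourth within them. The change was -0.53 ± 0.25 (log2, SE; limma adjusted p = 0.668). In KO DEN it stood at 2.31, 2.53, 2.03 and 1.83 and in KO DEN + PB at 2.08, 1.54, 2.10 and 2.04, with a change of -0.23 ± 0.25 (limma adjusted p = 0.821). Under DEN + PB the KO mean was 0.54 ± 0.25 above the WT mean (limma adjusted p = 0.199), with overlap. Of Bckdhb, the beta subunit, both probes differed by at most 0.19 (log2) in each of the 4 comparisons, and its brightest probe lay between 3.06 and 3.79 on all 16 arrays.

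The 2 enzymes that set the activity of the complex were measured alongside it. Bckdk, the inhibiting kinase, lay between -0.02 and 0.55 on all 16 arrays, and its 4 group means were 0.23, 0.25, 0.23 and 0.26. No comparison moved it by more than 0.03 (log2), with 95% confidence intervals that spanned -0.35 to 0.38 in all. Ppm1k, the activating phosphatase, gave 2 different answers from its 2 probes. The brightest, A_51_P265219, stood at 2.67, 2.80, 2.80 and 2.95 in WT DEN and at 2.41, 2.22, 2.52 and 2.58 in WT DEN + PB. The groups did not overlap, and the change was -0.37 ± 0.19 (log2, SE; limma adjusted p = 0.725). Under DEN + PB its WT and KO means were both 2.43.

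The other Ppm1k probe, A_51_P130057, separated the genotypes. It stood at 1.65, 1.32, 1.13 and 1.75 in WT DEN and at 1.86, 2.24, 2.27 and 2.22 in KO DEN. It stood at 1.23, 0.82, 0.46 and 0.76 in WT DEN + PB and at 1.71, 2.16, 1.55 and 1.63 in KO DEN + PB. Every KO array lay above every WT array of the same treatment, by 0.69 ± 0.20 (log2, SE; limma adjusted p = 0.0659) under DEN and by 0.95 ± 0.20 (1.93-fold; limma adjusted p = 0.00765) under DEN + PB, and only the latter passed. The difference under DEN passed when normexp, another background correction, was run without spots of outlying local background (0.65, limma adjusted p = 0.0487). Within each of the 4 slides the difference under DEN + PB was 0.81 to 1.09. After PB it differed by -0.65 ± 0.20 in WT (limma adjusted p = 0.24) and by -0.39 ± 0.20 in KO (limma adjusted p = 0.459), neither past the threshold. The call under DEN + PB was lost with normexp (0.94, limma adjusted p = 0.153) and without scaling between arrays (0.61, limma adjusted p = 0.287).

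Ivd, which oxidizes isovaleryl-CoA in the leucine arm, was the gene of the set called by its brightest probe. A_51_P425680 stood at 3.84, 3.83, 3.94 and 3.96 in WT DEN + PB and at 4.50, 4.53, 4.62 and 4.33 in KO DEN + PB. All 4 KO arrays were above all 4 WT arrays, by 0.61 ± 0.13 (log2, SE), or 1.52-fold (limma adjusted p = 0.00838, exact permutation p = 0.0286). Within each of the 4 slides the difference was 0.50 to 0.70. In WT DEN it stood at 4.16, 3.99, 4.11 and 3.96 and in KO DEN at 4.08, 4.24, 4.40 and 3.99, where the groups overlapped and differed by 0.13 ± 0.13 (limma adjusted p = 0.617).

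Across treatments the Ivd means differed in opposite directions in the 2 genotypes, by amounts that missed the threshold. It was 0.16 ± 0.13 (log2, SE) lower after PB in WT, with groups that did not overlap, and 0.32 ± 0.13 higher in KO (limma adjusted p = 0.903 and 0.295). The PB effect in WT less that in KO was -0.48 ± 0.18 (limma adjusted p = 0.663). The second Ivd probe, A_52_P550069, was higher in KO DEN + PB by 0.57 ± 0.27 with overlapping groups (limma adjusted p = 0.218). The 1.52-fold change lay just past the 1.5-fold threshold. The call was lost with quantile normalization (0.52, limma adjusted p = 0.00995) and with normexp (0.82, limma adjusted p = 0.328). It was lost too with normexp run without spots of outlying local background (0.56, limma adjusted p = 0.0052) and without scaling (0.27, limma adjusted p = 0.576). The same held without WT DEN + PB replicate 2 (0.58) or KO DEN + PB replicate 3 (0.56). Without scaling the median of all genes was -0.308, and Ivd stood 0.575 above the median both with and without scaling.

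Mccc1 and Mccc2, the subunits of the carboxylase that follows Ivd, were not called in any comparison. The brightest Mccc1 probe lay between 3.92 and 4.73 on all 16 arrays, with group means of 4.32, 4.23, 4.19 and 4.47, taking WT before KO and DEN before DEN + PB. The brightest Mccc2 probe had means of 1.02, 0.82, 0.57 and 0.65 in that order. The Mccc2 arrays of KO DEN stood at 0.88, -0.29, 0.92 and 0.78, so that 1 array carried most of the spread of its group.

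**Figure D2:**
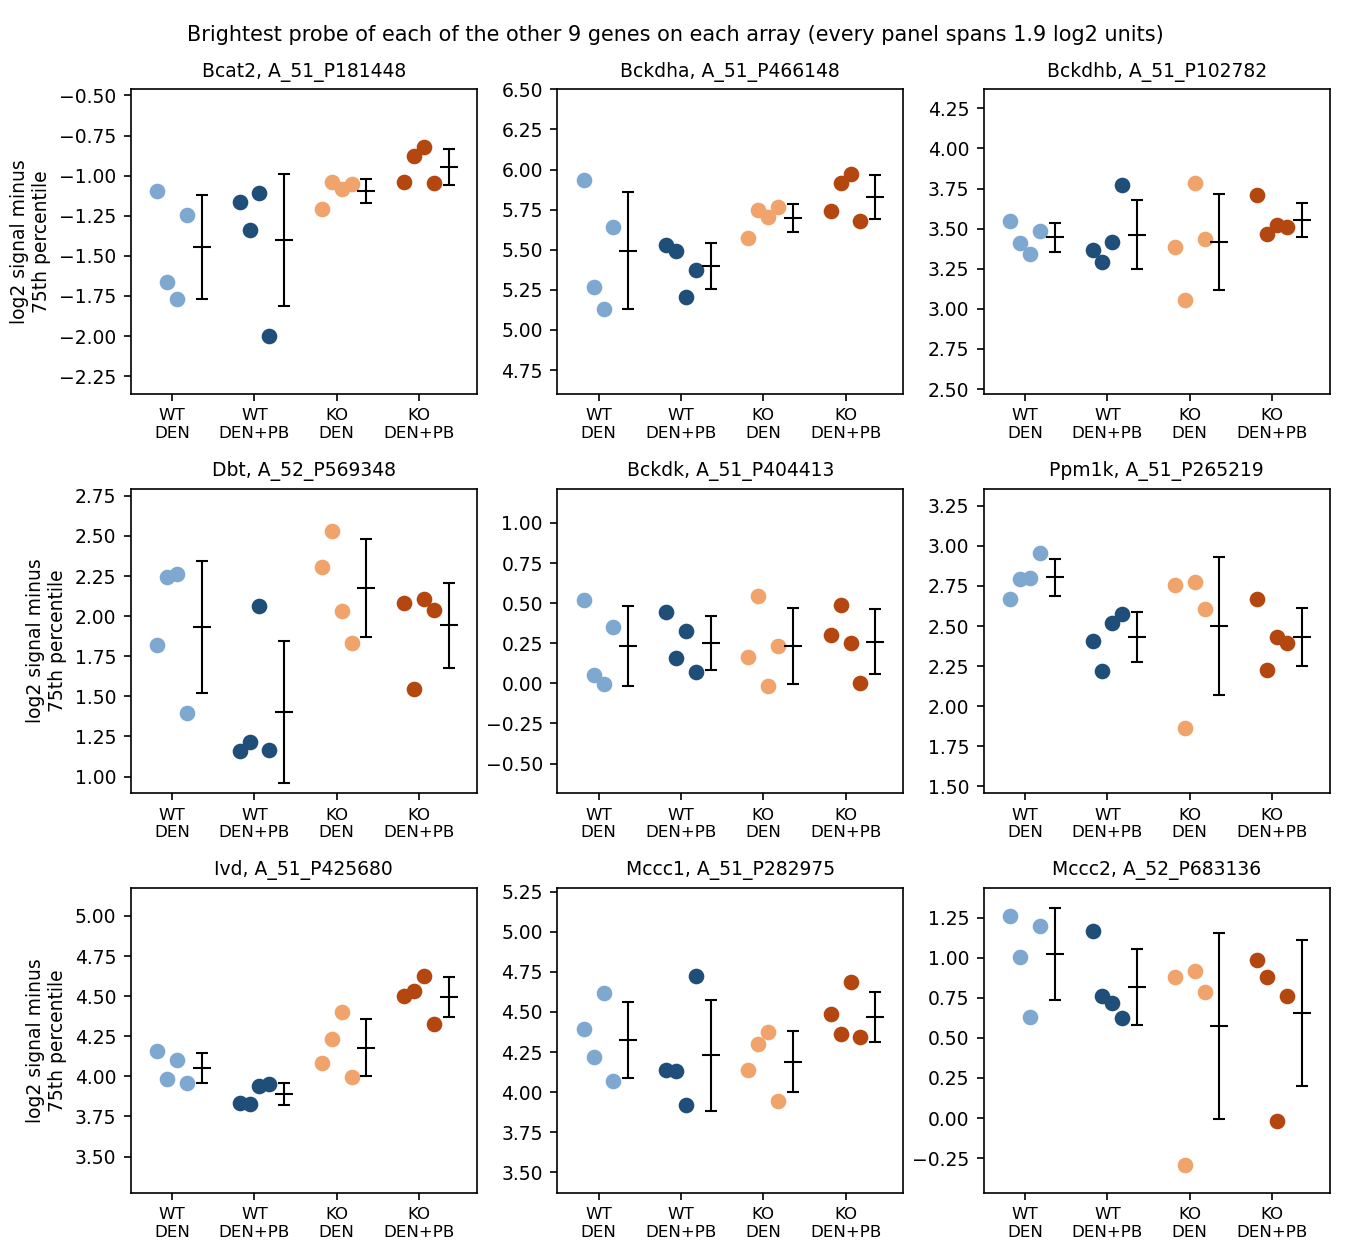
Each panel shows the brightest probe of 1 gene on the 16 arrays (y axis, log2 signal with the array's 75th percentile at 0, 1.9 log2 units in every panel; x axis, the 4 groups), with the group mean and SD (n = 4) beside the points. The KO DEN + PB arrays lie above the WT DEN + PB arrays without overlap for Bcat2, Bckdha and Ivd. The share of all genes without overlap was not counted.

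Between the genotypes, 0 of the 9 genes were called by their brightest probe under DEN, where 367 of 13304 genes (2.76%) were, with 0 at an unadjusted limma p under 0.05 and 0 called without moderation. Under DEN + PB, 1 of the 9 was called (Ivd), where 1012 genes (7.61%) were, and 4 of the 9 were at an unadjusted limma p under 0.05 (Bcat2, Bckdha, Dbt and Ivd). Neither the share of all genes at that unadjusted level nor the share without overlapping groups was counted. In this comparison an unadjusted limma p of 0.05 went with an adjusted p of 0.218 (second Ivd probe), so many probes reached it. The median log2 difference, KO minus WT, was 0.002 for the 9 genes and -0.036 for all genes under DEN, and 0.242 and 0.031 under DEN + PB. Under DEN + PB 8 of the 9 were higher in KO (53.6% of all genes) and 6 were above the median of all genes, and without scaling 4 were higher and 6 above that median. The PB effect in WT less that in KO was above 0 for 0 of the 9 (44% of all genes). Its median was -0.285 against -0.044 for all genes. For the same difference 0 of 10 hepatocyte markers (median -0.309) and 9 of 10 Kupffer cell and macrophage markers (0.360) were above 0. Of 60 further pathway genes, given below, 12 were (-0.212). A lean below 0 was thus not particular to the 9 genes. The sign of the 9 turned without scaling, where 8 of the 9 were above 0 while 1 was above the median of all genes, 0.354. No gene of the 13304 was called for this difference (0%), and 1 of the 9 was at an unadjusted limma p under 0.05 (Ivd). Its unadjusted limma p of 0.017 went with an adjusted p of 0.663, and the share of all genes at that level was not counted.

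**Figure D3:**
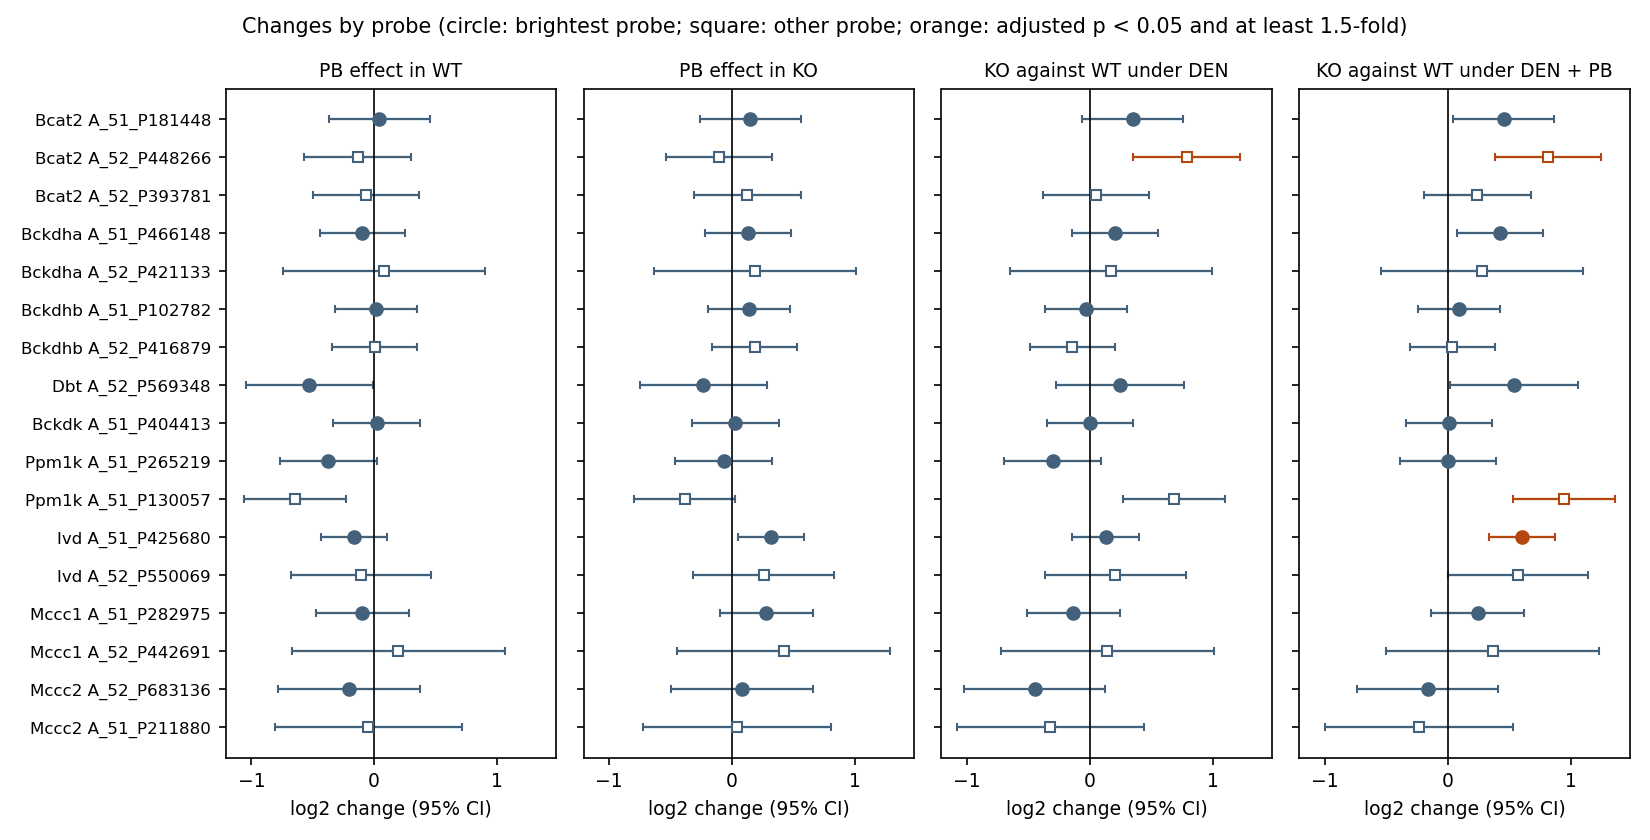
Log2 change with its 95% confidence interval (x axis) for each tested probe of the 9 genes other than Bcat1 (y axis), in the 4 comparisons, with the brightest probe as a circle and other probes as squares. The orange marks are the 4 called values, Bcat2 A_52_P448266 under DEN, and Bcat2 A_52_P448266, Ppm1k A_51_P130057 and Ivd A_51_P425680 under DEN + PB.

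Of 61 further genes around the pathway, 60 were tested. After PB, 0 of the 60 were called in WT, where 0.737% of all genes were. In KO 2 of the 60 were called, both lower, where 2.13% of all genes were. They were Slc3a1, the heavy chain of a transporter of cystine and dibasic amino acids (-1.37 ± 0.21, log2, SE; limma adjusted p = 0.00168), and Srebf1, a transcription factor of fat synthesis (-0.94 ± 0.21, limma adjusted p = 0.0268). Under DEN 1 of the 60 was called between the genotypes, where 2.76% of all genes were. It was Slc7a8, a light chain of the exchanger of large neutral amino acids, at -0.71 ± 0.17 in KO (limma adjusted p = 0.0374). Under DEN + PB 4 of the 60 were called higher and 4 called lower in KO, where 7.61% of all genes were called in either direction. The lower genes included Slc7a7, an exchanger of cationic and neutral amino acids (-1.40 ± 0.25), Slc7a8 (-1.08 ± 0.17) and Oxct1, which activates ketone bodies outside hepatocytes (-0.67 ± 0.16). The higher genes were Got1, the cytosolic aspartate aminotransferase (0.88 ± 0.17), Gls2, the liver-type glutaminase (0.73 ± 0.16), Ppara, the nuclear receptor of fat oxidation (0.73 ± 0.18), and Acat2, the cytosolic thiolase (0.63 ± 0.16). The limma adjusted p of these genes lay between 0.00143 and 0.023. Without KO DEN + PB replicate 2 the 8 calls became 4, and the call of Slc7a8 under DEN was lost without WT DEN replicate 1, 2 or 3 or KO DEN replicate 1, 3 or 4. The 2 calls after PB in KO became 1 without KO DEN replicate 1 or 2 or KO DEN + PB replicate 1 or 4.

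By role, the median KO minus WT difference under DEN + PB was -0.286 for 8 transporters (2 called lower), 0.126 for 6 later steps of the leucine arm (1 called each way), 0.134 for 13 genes of the valine and isoleucine arms (0 called) and 0.084 for 8 genes of propionate and methylmalonate (0 called). It was -0.091 for 7 cofactor genes (0 called), 0.400 for 8 genes of nitrogen acceptors and glutamate (2 called higher and 1 lower) and 0.321 for 9 regulators (1 called higher). Dld, the subunit that the complex shares with other dehydrogenases, stood at -0.43. The valine and isoleucine arms were thus not called in any comparison, while their 13 genes were higher after PB in KO in 12 cases and in WT in 4. Without scaling between arrays the whole distribution of genes moved, as given above.

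Markers of other liver cells moved with the genotype difference under DEN + PB. Called lower in KO were 8 of 10 Kupffer cell and macrophage markers, where 7.61% of all genes were called in either direction. The summed signals of this list were 79.6 to 89.5 in WT and 31.2 to 62.5 in KO (units of the 75th percentile). Called lower were also 4 of 7 cholangiocyte markers (18.9 to 36.6 in WT and 12.9 to 16.4 in KO). So were 5 of 10 stellate cell and fibroblast markers (88.2 to 109 and 55.1 to 70). The same held for 4 of 10 endothelial markers (45.7 to 56.4 and 27.0 to 30.2). Of 9 lymphocyte markers 3 were called lower (4.51 to 6.12 and 2.07 to 3.26). Called or not, 1 of 10 Kupffer cell and macrophage and 0 of 7 cholangiocyte markers were above 0. Of the stellate cell and fibroblast markers 1 of 10 was, of the endothelial 0 of 10 and of the lymphocyte 2 of 9. The summed signals did not overlap between the genotypes for any of these 5 lists. Of 10 hepatocyte markers, 2 were called higher in KO (Ass1 and Tat), with sums of 1540 to 1830 in WT and 1950 to 2370 in KO. Called or not, 9 of 10 were above 0 with a median of 0.321. The medians of the Kupffer cell and hepatocyte markers were -1.231 and 0.321, against 0.242 for the 9 genes of BCAA breakdown. The part of the cell makeup in the differences of Ivd, Ppm1k and Bcat2 was not tested. Under DEN, 5 of 10 Kupffer cell and macrophage, 2 of 10 endothelial, 1 of 9 lymphocyte and 3 of 5 adipocyte markers were called lower in KO. No hepatocyte, cholangiocyte or stellate marker was called there, and 2.76% of all genes were. Under DEN + PB, 1 of 6 acinar markers tested was called higher in KO and 0 of 5 adipocyte and 0 of 4 erythroid markers were called.

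**Figure D4:**
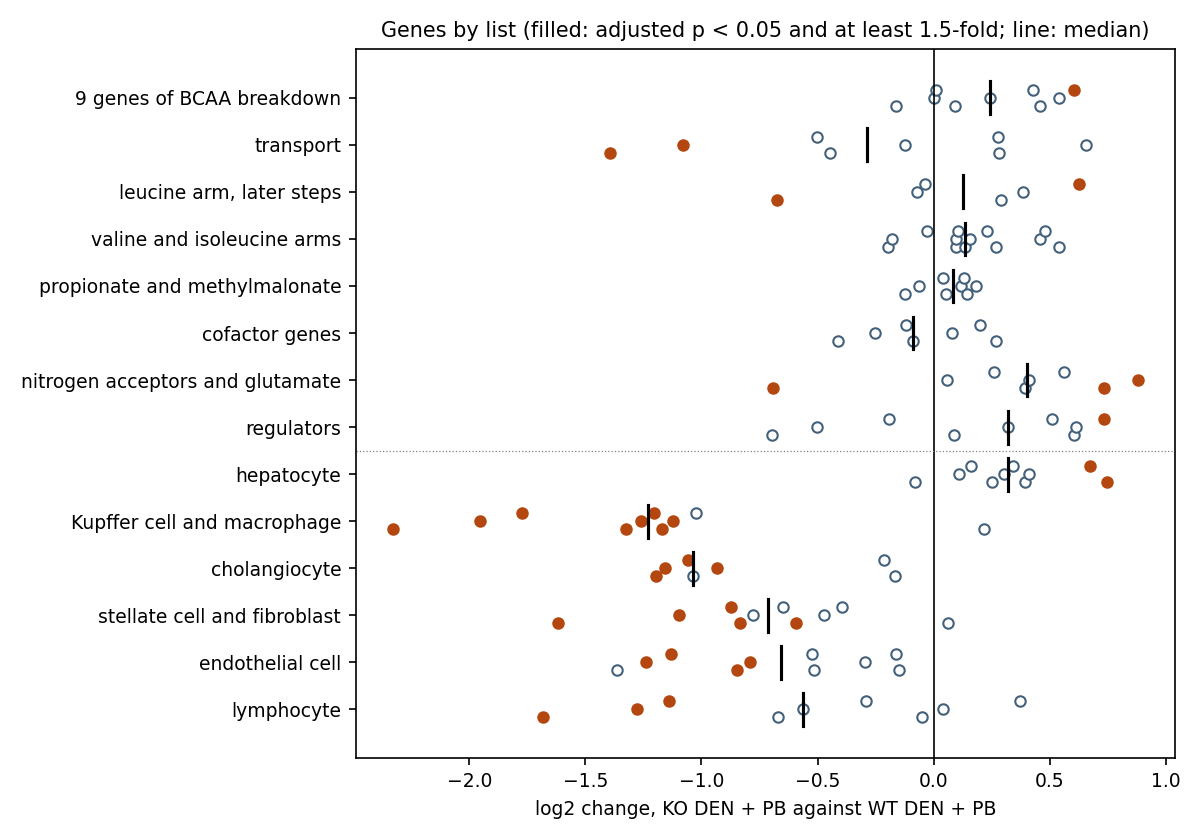
Each point is 1 gene by its brightest probe (x axis, log2 change of KO DEN + PB against WT DEN + PB; y axis, gene list), filled where called, with the list median as a line. The median of the 9 genes of BCAA breakdown was 0.242, of the hepatocyte markers 0.321 and of the Kupffer cell and macrophage markers -1.231.

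Over the 16 arrays, the genes whose pattern was most like that of Bcat1 probe A_52_P507537 were Rab11fip4 (r = 0.862), Wfdc12 (0.845), Glt28d2 (0.843), Aatk (0.843) and Nr2f6 (0.837), out of 13303 compared. The most opposite were Cyp2c55 (r = -0.930), Rsph4a (-0.928), Cyp2b10 (-0.925), Smpd3 (-0.925) and Abcc4 (-0.922). The 16 arrays fall into PB and no PB groups, which all of these genes share, and within groups the correlations were between 0.107 and 0.644 for the former and between -0.530 and 0.010 for the latter. Against Bcat1 the other 9 genes of BCAA breakdown correlated at -0.198 (Bckdhb) to 0.424 (Ppm1k). The probe was not well above background on 9 of the 16 arrays.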

How the data were processed

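RNA from 16 male mouse livers (4 groups of 4) was measured on 1-colour Agilent arrays. The authors' scanner software, Agilent Feature Extraction 12 per the labels, gave the deposited processed signal, an intensity on a linear scale after subtraction of background. The deposited series table held the same intensity, averaged over the spots of a probe to within 5.0e-04 percent, with no scaling between arrays. The normalization used in the study was not given in the sources used here.

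Spots with an outlier mark (71 to 122 per array) were dropped, spots of the same probe averaged, and each array's 75th percentile subtracted on the log2 scale. Accessions were named through RefSeq (28223 probes). Linear models with 4 group means over 16 arrays were fitted with limma 3.58.1 in R 4.3.3 (12 residual degrees of freedom), with Benjamini-Hochberg adjustment over 24454 probes. Calls needed an adjusted p under 0.05 and 1.5-fold. A gene took its brightest tested probe, and the 10 genes were named with every probe. For a group below background, a fold was taken against a floor: per array, the probe's own signal, raised where needed to the dimmest signal that still counted as well above background, entered the mean. This floor is not a limit of detection. A probe not well above background can lie above it, as Bcat1 did on KO DEN replicate 3. Such a fold is therefore no firm lower bound. The other group entered as measured, which weakens it further where that group was itself partly below background. The number of arrays limits the precision. Exact permutation tests were two-sided over 70 assignments. The fit was tested on simulated data. Python 3.11.15, numpy 2.4.6, pandas 2.3.3 and matplotlib 3.10.9 were used for the other steps.

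The members, gene lists and comparisons were chosen with earlier results of these data known. Alternatives were normexp (offset 50), the same without spots of outlying local background, quantile normalization, the unscaled series table, other filters, single comparisons, no moderation, slide or replicate number as a block, the mean of a gene's probes, no fold threshold and leaving out each array. In the second normexp run such spots were left out of the fit and of the probe averages. For normexp the median spot signal took the place of the planned mean, which the scanner files used here did not hold. The values of 1 pathway gene are not reported here.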

Additional observations from a re-analysis of the deposited data

Results flagged for a closer look

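Of 76 groups of 4 arrays (19 probes in 4 groups), 5 held 1 array whose gap to the nearest other array, divided by the range of the group, was above the 95% critical value of Dixon's test, and chance alone marks about 1 group in 20. Bcat1 probe A_52_P507537 stood at -6.45 on KO DEN + PB replicate 3 against -7.10 to -7.00 on the other 3 arrays, all below background. Dbt stood at 2.065 on WT DEN + PB replicate 3 against 1.16 to 1.22, and at 1.54 on KO DEN + PB replicate 2 against 2.04 to 2.10. Ppm1k probe A_51_P130057 stood at 1.86 on KO DEN replicate 1 against 2.22 to 2.27. Mccc2 probe A_52_P683136 stood at -0.29 on KO DEN replicate 2 against 0.78 to 0.92.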

How the results depend on the processing

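The tested Bcat1 probe was dim. Its PB difference with normexp was -0.43 ± 0.40 (log2, SE) in WT and 0.063 ± 0.40 in KO. With spots of outlying local background left out as well, it was -0.46 ± 0.17 and 0.058 ± 0.17. In WT it was below 0 under the 10 alternatives that held the probe. The filter for probes well above background on all 16 arrays dropped the probe. The set was picked on this fall, so its sign under other settings is no support for it. The normexp offset of 50 draws dim differences towards 0, so neither normexp run can tell how large this one was. The cause of the turned sign in KO was not tested. Under normexp, counts of calls fell to 0 for the pathway genes after PB in KO, for the member probes and pathway genes under DEN, and for the members, member probes and pathway genes under DEN + PB. Without outlying backgrounds they were 0 (pathway genes, DEN), 0 (members, DEN + PB) and 1 (member probes, DEN + PB, of 3). Quantile normalization gave 0 member probes under DEN and 0 members under DEN + PB. The unscaled table gave 0 member probes and 0 pathway genes under DEN, and 0 members, 0 member probes and 4 pathway genes (of 8) under DEN + PB, and the share of called genes higher in KO moved from 23.1% to 2.86% there, and under DEN from 37.1% to 50%, and after PB in KO from 59.0% to 36.7%. With no filter, only the 8 arrays compared, no moderation and slide as a block alike, the pathway genes called after PB in KO were 1 (of 2), and under DEN 0 member probes and 0 pathway genes were called.

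With the replicate number as a block, 0 pathway genes were called under DEN, Ivd under DEN + PB had a limma adjusted p of 0.0132, and no other call of a member changed. The numbers are not a pairing: deviations of same-numbered arrays correlated between -0.213 and 0.355.

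Leaving out 1 array at a time gave 1 to 3 pathway genes after PB in KO, 0 to 1 member probes and 0 to 1 pathway genes under DEN, and 0 to 1 members, 1 to 3 member probes and 4 to 8 pathway genes under DEN + PB. The lowest of these, 1 member probe and 4 pathway genes, came without WT DEN + PB replicate 2 and without KO DEN + PB replicate 2, respectively. Over all alternatives, array removal aside, the limma adjusted p of Ivd under DEN + PB ran from 0.00278 to 0.576 and that of Ppm1k A_51_P130057 from 0.00644 to 0.287. Of the values not called by the main setting, Ppm1k A_51_P130057 under DEN became called when normexp was run without spots of outlying local background (0.65, limma adjusted p = 0.0487). Among 41 further values (Bcat1 aside) that had neither an unadjusted p under 0.05 nor groups without overlap, 94 of 1092 recomputed values changed sign, all with a main value of at most 0.375 (log2), and 0 were called.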

Other observations

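Deviations of the arrays from their group means shared a pattern that split probes of 1 gene. The first component of these deviations over 13280 genes held 24.3% of their variance, and WT DEN replicate 3, KO DEN replicate 2, KO DEN + PB replicate 3 and WT DEN + PB replicate 4, 1 array of each group and each on another slide, stood highest on it. The 2 probes of Ivd followed it in opposite directions (r = 0.510 for A_51_P425680 and -0.868 for A_52_P550069, 16 arrays), and so did the 2 probes of Mccc1 (0.685 and -0.737). Bckdha A_52_P421133 (-0.859), both Mccc2 probes (-0.819 and -0.738) and Ppm1k A_51_P130057 (-0.617) ran with the negative side, and Dbt (0.627) and Bcat2 A_52_P393781 (0.537) with the positive side. Dbt and Mccc1 A_52_P442691 deviated against each other at r = -0.923. Of all genes, 22.6% had a correlation beyond 0.7 in size with the component, so it is not particular to BCAA breakdown. The 4 dimmer probes of Bckdha, Ivd, Mccc1 and Mccc2, put together after these values were seen, correlated with each other at 0.587 to 0.912. The other 130 pairs of probes of the 9 genes ran from -0.923 to 0.94 (median 0.132). The brightest Mccc2 probe correlated with the 4 at 0.696 to 0.805, so the pattern was not confined to dimmer probes. The within-group SD of the 4 was 0.41 to 0.65 (log2) against 0.124 to 0.412 for the brightest probes of those genes. Bcat1 probe A_52_P507537 followed the component weakly (r = 0.250).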
